A study of Mus musculus with 12 samples.

Results

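The Notch pathway and the secretory fate factors that it holds in check were followed through the epithelium of the mouse large intestine. The 10 genes were Notch1 and Notch2 (receptors), Dll1, Dll4 and Jag1 (ligands), Hes1 (the repressor that Notch signalling switches on), and Atoh1, Spdef, Gfi1 and Neurog3 (transcription factors of secretory cells). They were taken by gene symbol from a table of 28793 genes, and each symbol matched 1 row. The study's mice were C57BL/6, 3 months old, and differed in Tert, the gene of the reverse transcriptase of telomerase. GFP-sorted crypt base columnar cells, labelled stem or progenitor cells, came from mTert heterozygous mice (3 libraries, labelled G0) and from mTert null mice of generation 3 (3 libraries, null G3). Unsorted large intestinal crypt epithelial cells came from mTert heterozygous mice (2 libraries), mTert null mice of generation 4 (2 libraries, null G4) and generation 4 epithelium labelled as mTert reactivated (2 libraries). The labels call all heterozygous libraries G0 and mark the reactivated ones "tam". They do not say which promoter drove the GFP, how telomerase was switched back on, or whether the biological replicates they name were separate animals, so each p-value reflects variation from library to library and that may be partly technical.

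Notch receptors are cut when a ligand on a neighbouring cell binds them, and the freed intracellular part enters the nucleus and, with the DNA-binding protein RBPJ, turns on Hes1. HES1 represses Atoh1, so a crypt cell that receives a Notch signal tends towards the absorptive fate, while a neighbour that keeps ATOH1 becomes secretory and displays Delta-like ligands itself. Downstream of ATOH1, SPDEF favours goblet cells, GFI1 goblet and Paneth-type cells over endocrine ones, and NEUROG3 starts the enteroendocrine lineage.

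Sequence before the annotated starts of Jag1, Atoh1 and Spdef is shown because Jag1 had the largest estimate among these genes in null G4 crypts and because Atoh1 and Spdef varied together between crypt libraries. Windows of 250 bases before the RefSeq start were read from a RefSeq promoter table for GRCm38.p6, which held 9 of the 10 genes (Hes1 was not matched), and each runs 5′ to 3′ on the gene's strand. GENCODE M21 places the last 124 bases of the Jag1 window and the last 4 of the Spdef window inside the gene, and those bases are not printed. Capitals mark every match, on either strand, to the RBPJ core TGGGAA, the E-box CAGCTG, the E-box CAGATG or the HES class C site CACGCG. In the 3 windows no match overlaps another. The bases printed are chr2:137116645-137116770 on the minus strand for Jag1, chr6:64728875-64729124 on the plus strand for Atoh1 and chr17:27728956-27729201 on the minus strand for Spdef.
Jag1: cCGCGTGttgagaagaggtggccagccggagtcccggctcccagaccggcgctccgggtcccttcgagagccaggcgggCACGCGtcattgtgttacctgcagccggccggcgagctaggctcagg
Atoh1: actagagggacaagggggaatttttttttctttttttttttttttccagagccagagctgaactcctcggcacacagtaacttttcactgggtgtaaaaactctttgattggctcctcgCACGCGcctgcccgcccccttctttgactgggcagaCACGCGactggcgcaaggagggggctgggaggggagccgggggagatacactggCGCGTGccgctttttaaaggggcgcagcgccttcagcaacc
Spdef: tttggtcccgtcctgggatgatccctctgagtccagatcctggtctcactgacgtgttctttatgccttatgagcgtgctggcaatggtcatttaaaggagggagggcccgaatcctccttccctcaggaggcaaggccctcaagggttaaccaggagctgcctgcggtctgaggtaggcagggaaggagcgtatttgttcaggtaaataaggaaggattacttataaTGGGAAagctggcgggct
The Jag1 stretch printed holds 2 CACGCG matches (1 CAGCTG match lies in the bases of its window inside the gene), the Atoh1 window 3 CACGCG matches and the Spdef window 1 TGGGAA match, which ends 17 bases before the RefSeq start. Among 32851 promoter windows of this length 21.6% hold TGGGAA, 13% CAGCTG, 14.4% CAGATG and 7.62% CACGCG. Of the other members, Dll4 and Notch2 have 1 CACGCG match each, and Neurog3 and 1 of 2 Dll1 windows have 1 CAGCTG and 1 CACGCG match each. The Notch1 window, the other Dll1 window and both Gfi1 windows have none of the 4. GENCODE M21 places all 250 bases of that Notch1 window, that Dll1 window and 1 Gfi1 window inside the gene. It also places 231 bases of the other Gfi1 window and 11 of the Notch2 window there. The windows without a match thus hold little or no sequence before the GENCODE start. A match is a run of letters and was not tested as a binding site.

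The libraries differed in ways that bear on all 10 genes. Levels are in RPKM, read counts divided by gene length and by library size. The mitochondrial ribosomal RNAs took 38.7% to 71.9% of the total RPKM of a sorted library and 10.8% to 27.3% of an unsorted one. Null G3 replicate 1 stood apart among the sorted libraries: the summed RPKM of 12 small intestine genes was 6088 there against 104.2 to 155.8 in the other 5, and 79.2% of 8734 tested genes were lowest in it. The stem cell receptor Lgr5 was 0.121 RPKM in that library, 3.4 to 4.74 RPKM in the other sorted libraries and 0.453 to 0.928 RPKM in crypts. The 9 stem cell markers summed to 8.49 RPKM there and to 158.7 to 220.6 RPKM in the other sorted libraries. Olfm4, a gene of the Notch target list, went the other way, at 10.1 RPKM there and 3.79 to 7.4 RPKM in the others. Tert itself was 0.459 and 0.251 RPKM with heterozygous genotype and 0.0078 and 0.038 RPKM with null genotype in crypts. Its level in the crypts labelled reactivated, 0.017 and 0.031 RPKM, was between the 2 null values. Sorted heterozygous libraries had 0.042, 0.058 and 0.169 RPKM of Tert, and the null G3 ones 0, 0.079 and 0.0013 RPKM. The labels do not state the deleted part of Tert, so these values check them only in part. The summed RPKM of 4 Y-linked genes was 18.2 to 18.9 in both heterozygous crypt libraries and in reactivated replicate 2, and 0.0148 or less in both null G4 libraries and in reactivated replicate 1. Sex and genotype therefore cannot be told apart between heterozygous and null G4 crypts. Among sorted libraries the sum was 8.54 in null G3 replicate 2 and 0.0562 or less in the other 5. In crypts the smallest steps of low values implied 74700000 to 102700000 reads per library, and at that depth Neurog3, the lowest member, rested on about 58 to 129 reads per library and Spdef, the highest, on about 7691 to 19153. Sorted libraries, apart from heterozygous replicate 2, gave no single step, and their depth is unknown.

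Spdef was the most abundant of the 10 genes in crypts, and the receptors and ligands were low. RPKM is a level per length, so genes can be compared on it. In the 6 crypt libraries Spdef (chromosome 17, 27714352 to 27728955) had a median of 52.3 RPKM, Atoh1 (chromosome 6, 64729125 to 64731245) 27.6 and Hes1 (chromosome 16, 30064384 to 30067796) 16.8. The levels of Jag1 (chromosome 2, 137081456 to 137116644) and Notch1 (chromosome 2, 26457903 to 26516663) had medians of 4.03 and 3.71 RPKM. Next came Dll4 (chromosome 2, 119325784 to 119335962) at 2.69, Gfi1 (chromosome 5, 107716657 to 107726036) at 2.58, Dll1 (chromosome 17, 15367354 to 15376872) at 2.31 and Notch2 (chromosome 3, 98013527 to 98150361) at 1.73 RPKM. Neurog3 (chromosome 10, 62133090 to 62134763) was lowest at 0.605 RPKM. The crypt ranges of Atoh1 (20.4 to 39.9 RPKM) and Hes1 (15.1 to 19.7) did not overlap, nor did those of Notch2 (1.21 to 2.08) and Neurog3 (0.396 to 0.772). Spdef (32.5 to 81.4 RPKM) overlapped Atoh1 in range but exceeded it within every crypt library. From Jag1 down to Notch2 the ranges of neighbouring genes overlapped. Within each of the 6 crypt libraries, however, Notch1 lay above Dll4, Gfi1, Dll1 and Notch2, Jag1 and Dll4 lay above Dll1 and Notch2, and Dll1 and Gfi1 lay above Notch2. The order of Jag1 against Notch1, Dll4 and Gfi1, and that of Gfi1 against Dll4 and Dll1, differed between libraries. Coordinates are those of GENCODE M21 on GRCm38, and all 10 are protein-coding genes.

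**Figure D1:**
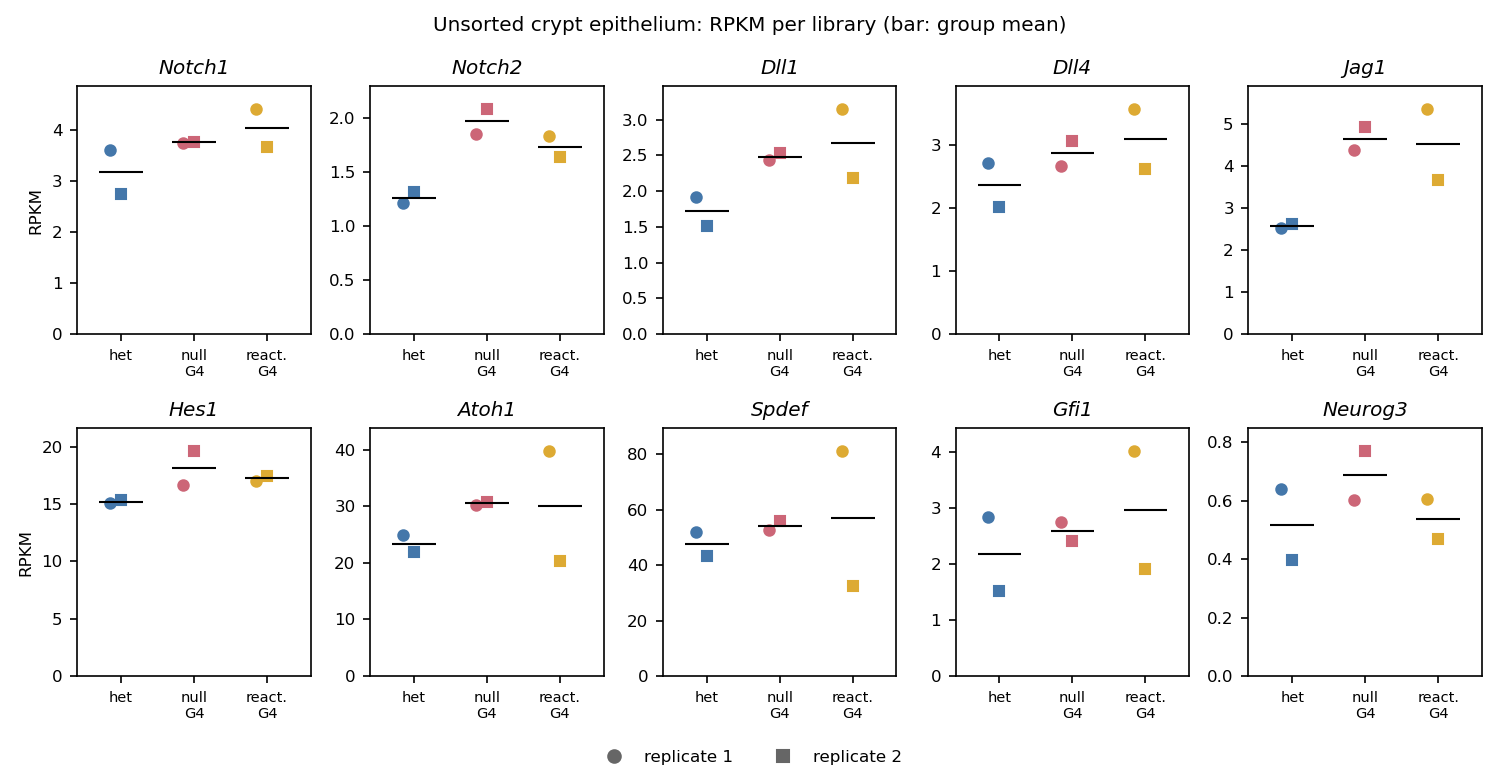
RPKM of the 10 genes in unsorted crypt epithelium, 1 panel per gene with its own axis from 0; each point is 1 library (circle replicate 1, square replicate 2) and each bar is a group mean of 2. Jag1 is at 2.53 and 2.63 RPKM in the heterozygous libraries and 3.67 to 5.37 in the other 4, and the 2 reactivated libraries lie far apart for Atoh1 and Spdef.

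The first crypt comparison asked whether these genes differed between null G4 and heterozygous epithelium. None of the members tested passed. Jag1, a ligand expressed in the crypt epithelium, had the largest estimate. It was 2.53 and 2.63 RPKM in the heterozygous libraries and 4.39 and 4.93 RPKM in the null G4 libraries. These groups do not overlap, and the null values lie well above the heterozygous pair. The difference on the log2(RPKM + 1) scale was 0.66 (SE 0.18, 95% interval 0.26 to 1.07, n = 2 per group, limma adjusted p = 0.0546), just short of the threshold of 0.05 on p adjusted over all tested genes. The median of all 11464 tested genes was itself 0.36, and 16.2% of genes had a larger difference than Jag1. In bulk libraries such as these, more cells of a type and more RNA per cell cannot be told apart, for Jag1 and for each gene below.

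Among the receptors, Notch2 was 1.21 and 1.31 RPKM in the heterozygous pair and 1.85 and 2.08 RPKM in the null G4 pair, which do not overlap, with a log2 difference of 0.39 (SE 0.14, limma adjusted p = 0.0782). Notch1 was 3.61 and 2.75 RPKM in the heterozygous pair and 3.75 and 3.77 RPKM in the null G4 pair, a log2 difference of 0.19 (limma adjusted p = 0.353). The 2 null values of Notch1 lie just above the higher heterozygous one. The ligand Dll1, which secretory progenitors present, was 1.92 and 1.52 RPKM in the heterozygous pair and 2.43 and 2.53 RPKM in the null G4 pair, a log2 difference of 0.36 (SE 0.17, limma adjusted p = 0.135). Dll4, its partner in maintaining crypt stem cells, was 2.71 and 2.01 RPKM against 2.67 and 3.07 RPKM, and here the groups overlap (log2 difference 0.21).

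Hes1, the effector, was 15.1 and 15.3 RPKM in the heterozygous pair and 16.7 and 19.7 RPKM in the null G4 pair, a log2 difference of 0.24 (SE 0.18, 95% interval -0.18 to 0.66, limma adjusted p = 0.313). Atoh1, the factor that opens the secretory programme, was 24.9 and 22 RPKM in the heterozygous pair and 30.2 and 30.8 RPKM in the null G4 pair (log2 difference 0.37, SE 0.30, 95% interval -0.31 to 1.05). The null libraries were both higher for these 2 genes, by amounts below or near the shift of all genes. Spdef was 52 and 43.2 RPKM in the heterozygous pair and 52.6 and 55.9 RPKM in the null G4 pair (log2 difference 0.19, SE 0.38), nearly touching. Gfi1 was 2.84 and 1.53 RPKM against 2.75 and 2.41 RPKM, with both null values inside the heterozygous range. Neurog3 stayed under the filter of RPKM 1 and was not tested, at 0.641 and 0.396 RPKM in the heterozygous pair and 0.603 and 0.772 RPKM in the null G4 pair.

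In this comparison 0 of the 9 members tested passed by limma, where 5.55% of all tested genes did (4.97% higher and 0.576% lower in null G4), and 2 (Jag1 and Notch2) had an unadjusted p under 0.05, where 44.2% of genes did. The groups did not overlap for 7 of the 9, all higher in null G4, against 81.2% of all genes (74.7% higher and 6.5% lower). The members' median difference was 0.24, below that of all genes, and the estimates of 3 of 9 (Jag1, Notch2 and Atoh1) lay above it. With only these 2 groups fitted, Jag1, Notch2 and Dll1 passed (adjusted p = 0.0099, 0.025 and 0.0376), but so did 49.6% of all genes. The same 3 members passed when either reactivated library was left out (49.6% and 49.7% of all genes). With a term for Y-linked expression Jag1 was 0.21 (adjusted p = 0.727) and the estimates of Atoh1 and Spdef were -0.56 and -1.11. Within a group only the 2 reactivated libraries differ in Y-linked expression, so that term rests on the gap between them, here and for the genes given with it below. With 2 libraries in each group the smallest two-sided p of an exact permutation test is 0.333.

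The next comparisons asked whether crypts labelled reactivated differed from null G4 and from heterozygous crypts. Both share libraries with the comparison above and with each other. Jag1 was 5.37 and 3.67 RPKM in the reactivated libraries, which straddle the null pair and lie above both heterozygous values. Its log2 difference was -0.052 from null G4 (SE 0.18, 95% interval -0.46 to 0.35) and 0.61 from heterozygous crypts (SE 0.18, 95% interval 0.20 to 1.01, limma adjusted p = 0.213). Notch2, at 1.83 and 1.63 RPKM, was the only member whose reactivated libraries both lay below the null G4 pair (log2 difference -0.12, limma adjusted p = 0.833). For 7 members (Notch1, Dll1, Dll4, Jag1, Atoh1, Spdef and Gfi1) replicate 1 lay above the null G4 pair and replicate 2 below it. Of all tested genes 83.3% were higher in replicate 1 than in replicate 2. The share of genes that straddles the null pair was not counted. For the same 7 members replicate 1 was also the highest of the 6 crypt libraries, where 19.6% of all tested genes were highest in it. Hes1 was 17 and 17.4 RPKM, within the null range and above both heterozygous libraries (log2 difference from heterozygous 0.17, SE 0.18). Dll1 was 3.16 and 2.18 RPKM, above both heterozygous libraries (0.42, SE 0.17, limma adjusted p = 0.335). Notch1 was 4.42 and 3.67 RPKM and Dll4 3.58 and 2.63 RPKM, with log2 differences of 0.27 and 0.29 from heterozygous crypts.

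None of 9 members passed either comparison by limma, where 0.0262% of all genes passed against null G4 (0.0174% higher and 0.00872% lower) and 1.27% against heterozygous crypts (1.13% higher and 0.148% lower). At an unadjusted p under 0.05 there were 0 members against null G4 (2.7% of genes) and 2 against heterozygous crypts, Jag1 and Dll1 (14.1% of genes). The groups did not overlap for 1 of 9 members against null G4, which was lower (30% of genes, 4.58% higher and 25.5% lower). They did not overlap for 5 of 9 members against heterozygous crypts, all higher (51.1% of genes, 46.7% higher and 4.42% lower). The median difference of the members was -0.052 from null G4 (all genes -0.14) and 0.28 from heterozygous crypts (all genes 0.22). Without reactivated replicate 2, Jag1, Dll1 and Atoh1 passed against heterozygous crypts (adjusted p = 0.0292, 0.0413 and 0.0482), as did 20% of all genes.

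**Figure D2:**
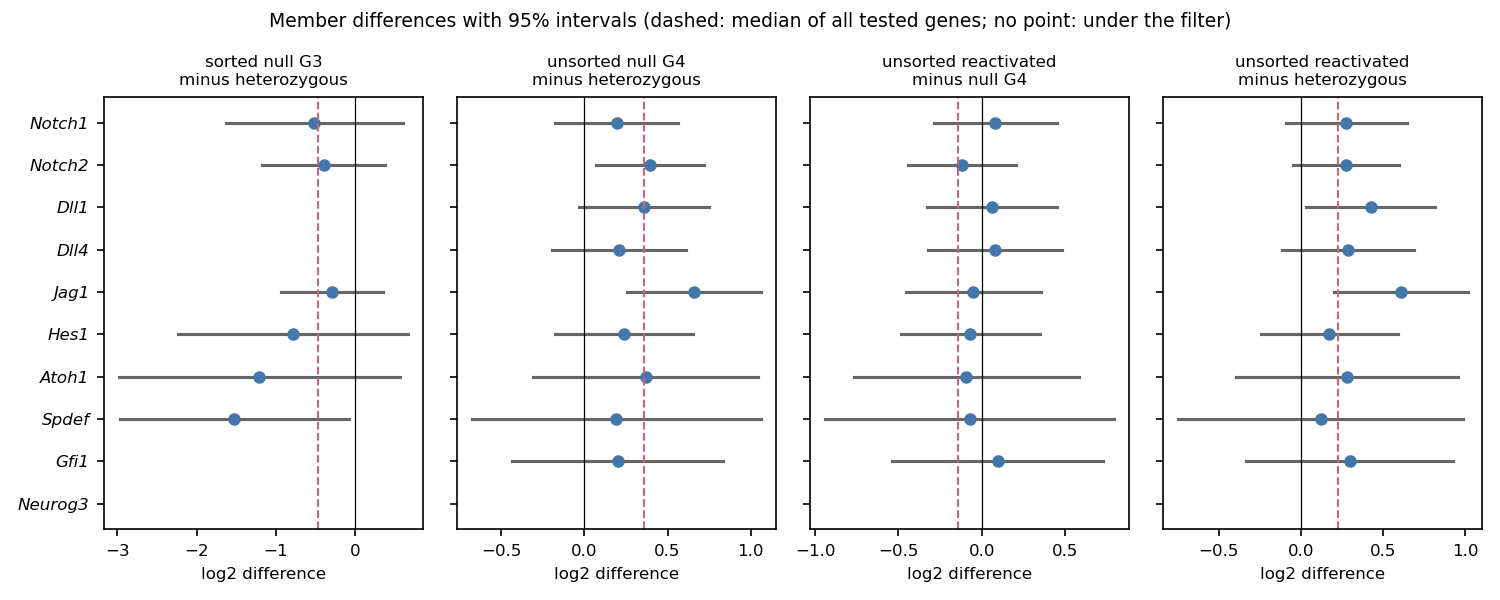
Log2 differences of the members on the log2(RPKM + 1) scale in 4 comparisons, with 95% intervals from limma; the dashed line is the median of all tested genes, and a gene without a point was under the filter. In null G4 against heterozygous crypts Jag1 (0.66) lies farthest above the dashed line at 0.36, and in sorted cells Spdef (-1.52) lies farthest below the line at -0.46.

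Among the members, the 2 libraries labelled reactivated differed most from each other in Spdef, Atoh1 and Gfi1. Spdef was 81.4 RPKM in replicate 1 and 32.5 in replicate 2, the highest and the lowest crypt values. Atoh1 was 39.9 and 20.4 RPKM, again the highest and the lowest, and Gfi1 was 4.02 and 1.9 RPKM. On the log2(RPKM + 1) scale replicate 1 exceeded replicate 2 by 1.30 for Spdef, 0.93 for Atoh1 and 0.79 for Gfi1, against a median of 0.27 over all tested genes. In the same direction, 0.41%, 1.89% and 3.73% of tested genes had a larger difference. Genes with a gap the other way are not in these shares. The other members lay nearer to the bulk, from -0.034 for Hes1 to 0.45 for Jag1, and Neurog3, the endocrine factor, differed by 0.13 (0.607 and 0.47 RPKM).

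Most genes were higher in replicate 1, 83.3% of all tested ones. Of the other secretory fate factors 20 of 22 were higher there. Among other Notch genes it was 4 of 5 receptors and ligands, 5 of 10 of processing and 14 of 18 modifiers. It was also 11 of 15 of the nuclear complex and 9 of 14 target genes. Of the secretory products, 10 of 15 goblet cell products, 13 of 13 enteroendocrine products, 7 of 8 deep crypt secretory products and 8 of 8 tuft cell genes were higher in replicate 1. The goblet cell products that were lower were Tff3 (179 and 195.2 RPKM), Fcgbp (200 and 234 RPKM), Muc13 (284.3 and 313.3 RPKM), Clca1 and Bcas1. The summed RPKM of 15 goblet cell products was 6238 in replicate 1 and 4506 in replicate 2, and that of 13 enteroendocrine products was 144.2 and 83. For 8 deep crypt secretory products it was 625 and 381.1 and for 8 tuft cell genes 10.6 and 8.28. The sum of 9 stem cell markers was also higher, 151.1 and 112.7. Some lists outside the secretory cells went the same way, with 11 of 11 leukocyte markers, 8 of 8 fibroblast markers and 11 of 12 small intestine genes higher. Fewer were higher among absorptive fate factors (6 of 13), epithelial identity genes (4 of 9) and colon genes (1 of 9). Replicate 1 lacked Y-linked expression and replicate 2 had it, and mitochondrial ribosomal RNA was 10.8% and 16.7% of their summed RPKM. The part of these, of other cells and of colon position in the difference was not tested. With 1 library each, the difference has no replicate check.

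**Figure D3:**
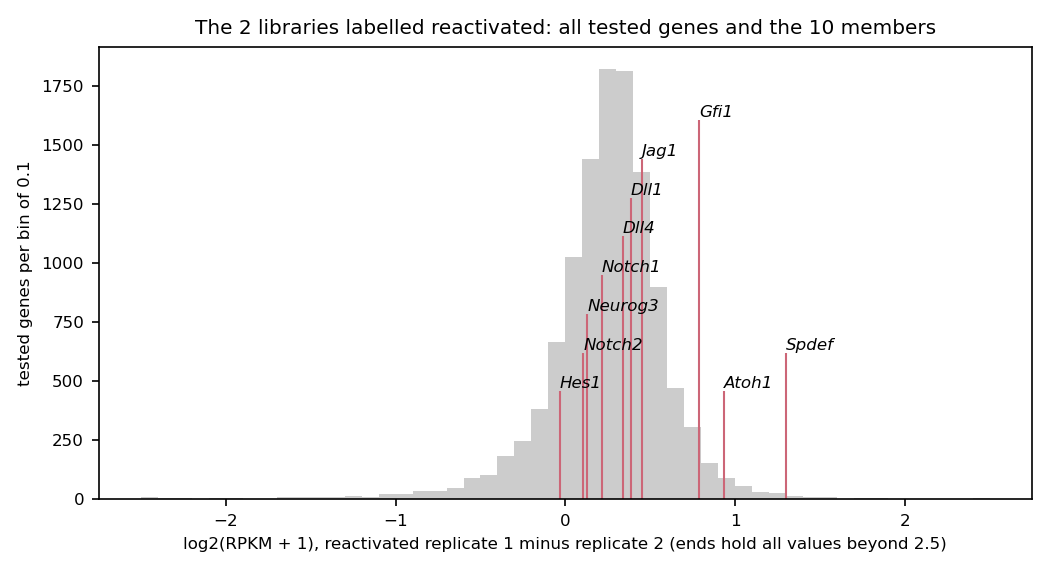
Difference between the 2 libraries labelled reactivated on the log2(RPKM + 1) scale (x axis) for 11464 tested genes (grey bars, genes per bin of 0.1); red lines mark the 10 members. Spdef, Atoh1 and Gfi1 lie on the right at 1.30, 0.93 and 0.79, while Hes1 lies at -0.034; the heights of the red lines only keep the names apart.

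Over the 6 crypt libraries Spdef and Atoh1 varied together (Pearson r = 0.948 on the log2(RPKM + 1) scale), and Gfi1 followed both (r = 0.853 with Spdef and 0.866 with Atoh1). Hes1 varied little with them (r = 0.351 with Atoh1 and 0.114 with Spdef) and most with Notch2 among the members (r = 0.895). These are descriptions over 6 libraries of 3 groups that share scaling, and the reactivated pair carries much of the spread. Of the 11464 genes tested in crypts, those most like Atoh1 were Mafg, Dalrd3 and Cd44 (r = 0.997, 0.994 and 0.992). Mib2, an E3 ligase that can act on Notch ligands, was most like Spdef (r = 0.992), followed by Tbcc and Ppp1r37 (r = 0.992 and 0.991). Pik3c3, Elmo3 and Npc2 were most like Hes1 (r = 0.989, 0.985 and 0.983). Other genes reached such values too: of the 11464, 207 genes had r over 0.95 with Atoh1, 62 with Spdef and 41 with Hes1.

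In sorted cells the comparison asked whether null G3 cells differed from heterozygous ones. Spdef showed the largest estimate, and none of the members tested passed. Spdef was 8.34, 10.1 and 10 RPKM in heterozygous cells and 0.146, 4.11 and 7.29 RPKM in null G3 libraries. All 3 null values lie below the lowest heterozygous value, though the third is close to it. The log2 difference was -1.52 (SE 0.65, 95% interval -2.97 to -0.070, n = 3 per group, limma adjusted p = 0.481), or -0.69 without null G3 replicate 1 (adjusted p = 0.867). Of the 2 null libraries then left, the lower, replicate 2 with 4.11 RPKM, is the sorted library with Y-linked expression, whose part was not tested. Over all tested genes the median difference was -0.46, and without that library -0.19.

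Atoh1 was 13.3, 10.6 and 15.4 RPKM in heterozygous cells and 0.339, 12.1 and 11.6 RPKM in null G3 libraries, so that replicates 2 and 3 of null G3 lie within the heterozygous range. Its log2 difference was -1.21 (SE 0.79, limma adjusted p = 0.481), and -0.12 without null G3 replicate 1. Hes1 showed the same pattern, at 9.83, 9.26 and 8.35 RPKM in heterozygous cells and 0.812, 8.79 and 10.6 RPKM in null G3 libraries, and its estimate of -0.78 became 0.071 without that library. Notch1 was 2.94, 2.8 and 1.92 RPKM against 0.06, 2.17 and 3.48 RPKM, and its estimate of -0.51 became 0.097. The receptor Notch2 (1.64, 1.76 and 1.44 against 0.18, 1.39 and 1.77 RPKM) and the ligand Jag1 (1.14, 1.22 and 1.02 against 0.198, 0.849 and 1.35 RPKM) had estimates of -0.40 and -0.29, which became -0.020 and -0.027. Thus 9 of the 10 members were lowest in null G3 replicate 1, Dll1 being the exception, as were 79.2% of all tested genes. Apart from Spdef the other null values ranged around the heterozygous ones.

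The 4 remaining members reached RPKM 1 in too few sorted libraries to be tested. Dll1 was 0.957, 1.28 and 0.726 RPKM in heterozygous cells and 0.731, 0.473 and 1.28 RPKM in null G3 libraries. Dll4 was 1.85, 0.887 and 0.875 against 0.346, 0.542 and 1.22 RPKM. Gfi1 was 0.945, 1.8 and 0.913 against 0.0108, 0.676 and 1.37 RPKM. For these 3 genes and for Neurog3 the groups overlap. Neurog3 was 0.426, 1.59 and 0.909 RPKM in heterozygous cells and 0.00583, 0.534 and 1.22 RPKM in null G3 libraries, and both groups spread widely.

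By limma 0 of 6 members passed, where 0% of 8734 genes did, and 1 (Spdef) had an unadjusted p under 0.05, where 1.64% of genes did. The groups did not overlap for that 1 member of 6, against 12.7% of all genes (0.114% higher and 12.6% lower). With 3 libraries in each group the smallest two-sided p of an exact permutation test is 0.1. The goblet cell products summed to 1825 to 2832 RPKM in heterozygous cells and 347.1, 1339 and 1728 RPKM in null G3 libraries, also lower in all 3. Mitochondrial ribosomal RNA was 38.7% to 53.6% of the summed RPKM in heterozygous cells and 71.9%, 64.4% and 46.8% in null G3 libraries, and its part in the lower Spdef was not tested.

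**Figure D4:**
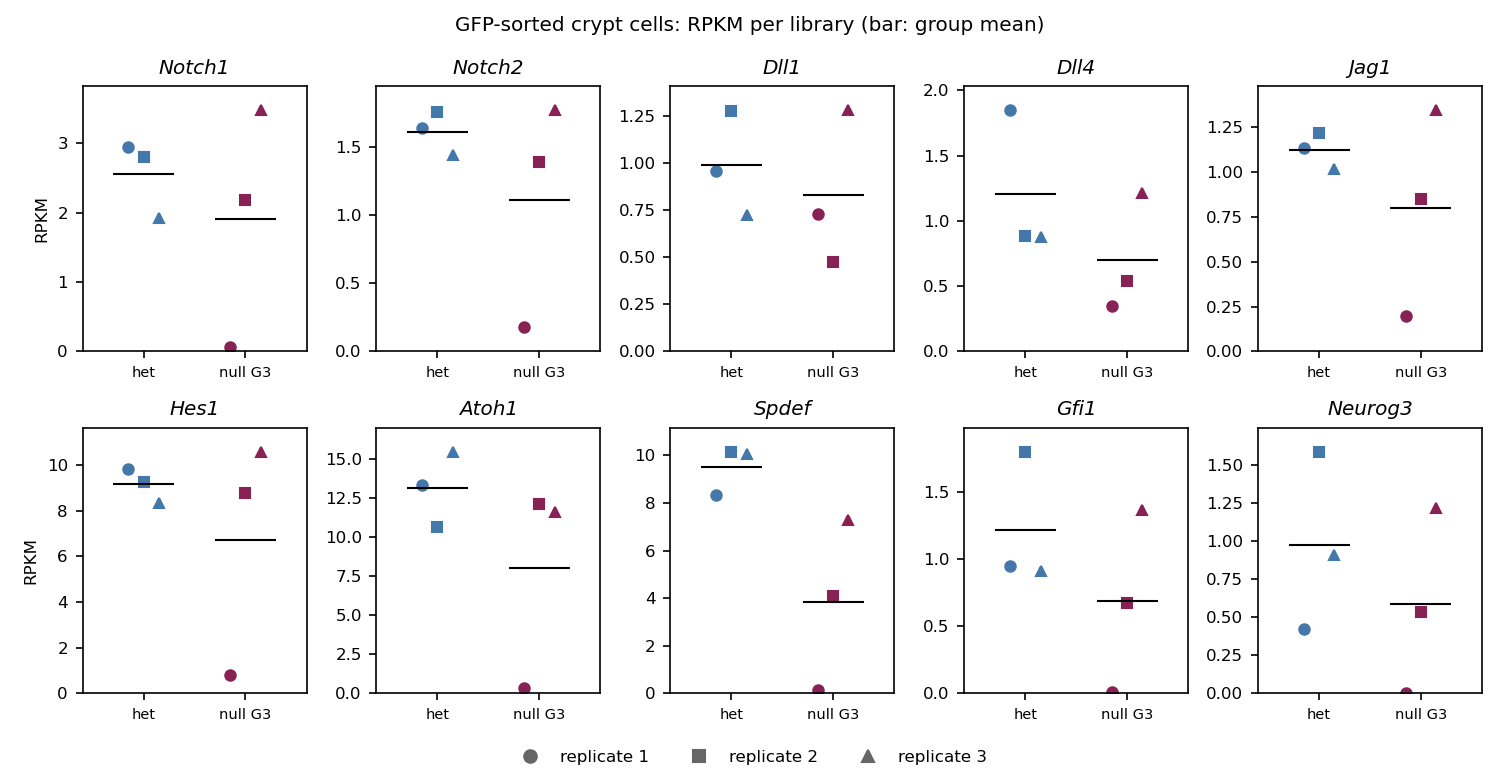
RPKM of the 10 genes in GFP-sorted crypt cells, 1 panel per gene with its own axis from 0; each point is 1 library (circle, square and triangle for replicates 1, 2 and 3) and each bar is a group mean of 3. Null G3 replicate 1 (circle on the right) is the lowest point for 9 genes, as it is for 79.2% of all tested genes. Spdef is the gene whose 3 null points all lie below the heterozygous ones.

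Whether the null effect differed between crypts (generation 4) and sorted cells (generation 3) was tested as an interaction over all 12 libraries. Spdef had the largest difference of effects, 1.71 (SE 0.96, limma adjusted p = 0.208), followed by Atoh1 at 1.58 (SE 1.12, adjusted p = 0.279). For Jag1 it was 0.95 (SE 0.38, adjusted p = 0.19). The median over all tested genes was itself 0.73. That of the members was 0.75, and 5 of 10 lay above the median of all genes. A larger difference than that of Spdef, Atoh1 and Jag1 was found in 3.84%, 5.74% and 32.2% of genes. None of 10 members passed by limma, where 0.303% of 11862 genes did, and 1 (Jag1) had an unadjusted p under 0.05, where 26.1% of genes did. Without null G3 replicate 1 the differences were 0.88 for Spdef and 0.49 for Atoh1, against a median of 0.52 over all genes. With each library left out in turn, Jag1 passed only without null G3 replicate 3 (limma adjusted p = 0.0466), as did 29.8% of all genes.

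The balance among the members was read as ratios of RPKM within a library, in which any scaling of that library cancels. This matters between sorted and unsorted libraries, whose sets list different genes and appear to have been normalized separately, so their levels were set side by side and not tested. Spdef exceeded Atoh1 in every crypt library, with ratios of 2.09 and 1.97 (heterozygous), 1.74 and 1.82 (null G4) and 2.04 and 1.59 (reactivated). It was below Atoh1 in every sorted library, with ratios of 0.628, 0.952 and 0.652 in heterozygous and 0.429, 0.339 and 0.627 in null G3 cells. The ranges of the 2 sets are well apart, with or without null G3 replicate 1. As a share of the summed RPKM of the 10 genes, Spdef made up 37.6% to 50.5% in crypts and 5.14% to 24.5% in sorted cells.

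Hes1 relative to Atoh1 did not separate the sets. The ratio was 0.74, 0.87 and 0.542 in heterozygous and 2.39, 0.725 and 0.909 in null G3 sorted cells, where only null G3 replicate 1 exceeds 1. In crypts it was 0.605 and 0.697 (heterozygous), 0.551 and 0.638 (null G4) and 0.427 and 0.855 (reactivated), the last pair spanning the crypt range. Notch1 exceeded Notch2 in every library but null G3 replicate 1, with ratios of 1.34 to 1.96 in the other 5 sorted and 1.81 to 2.99 in the crypt libraries. Dll1 to Dll4 ran from 0.707 to 0.911 in crypts and from 0.518 to 2.11 in sorted cells, where both ligands were near RPKM 1. Neurog3 made up 0.377% to 0.613% of the members' sum in crypts and 1.03% to 3.83% in sorted cells other than null G3 replicate 1 (0.206%).

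**Figure D5:**
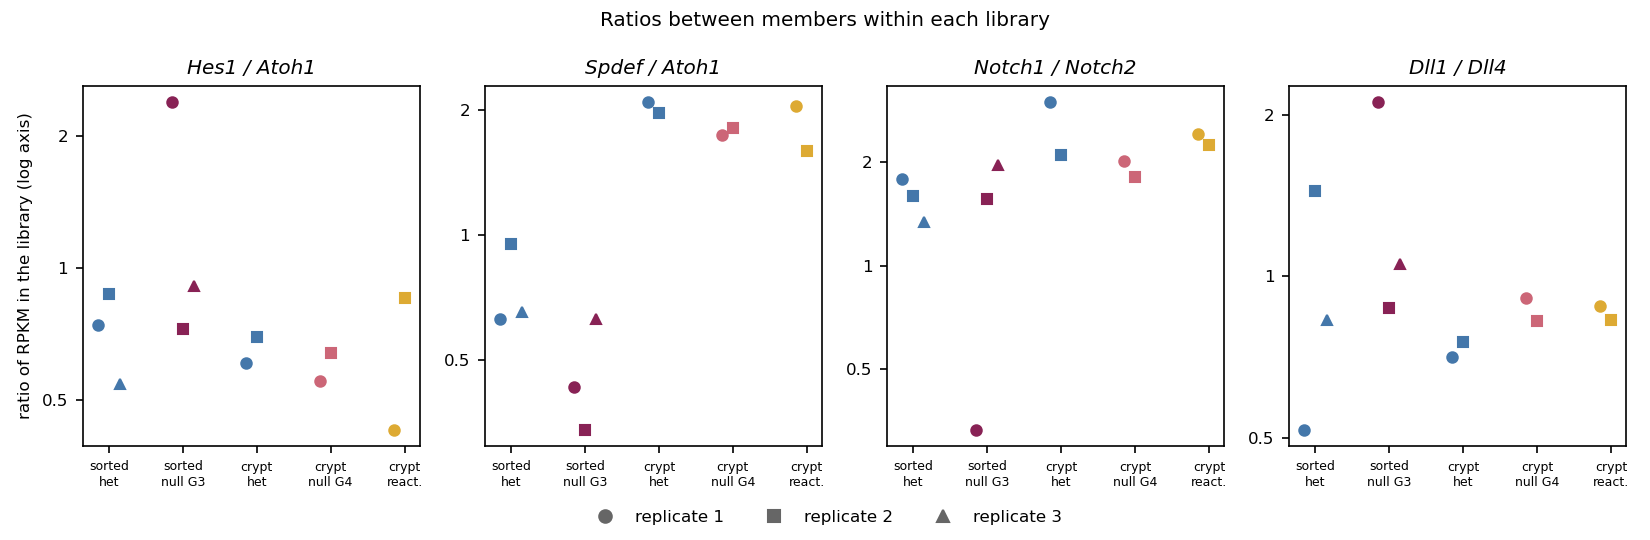
Ratios of RPKM between 2 members within each library (log axis), by group; circles, squares and triangles are replicates 1, 2 and 3. Spdef / Atoh1 lies between 1.59 and 2.09 in crypts and at 0.952 or below in sorted cells, while the other ratios of the 2 sets overlap.

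The rest of the pathway was read from lists drawn up around these genes. In null G4 against heterozygous crypts, 2 of 9 tested genes of Notch processing rose, both of them sheddases that cut the receptor outside the cell, Adam17 (log2 difference 0.78, SE 0.17, limma adjusted p = 0.0413) and Adam10 (0.76, SE 0.18, limma adjusted p = 0.0481). Adam10 was 10.3 and 11.8 RPKM in the heterozygous pair and 18.8 and 20.1 RPKM in the null G4 pair. The list's median was 0.45 against 0.36 for all genes, of which 4.97% rose. Among 13 tested modifiers 1 rose, the ubiquitin ligase Dtx3l (0.87, limma adjusted p = 0.0456), with a list median of 0.44. Of the other Notch target genes 1 of 6 tested rose, the cyclin Ccnd1 (1.30, limma adjusted p = 0.0395), which also has other regulators. Its levels were 9.52 and 9.6 RPKM in the heterozygous pair and 23.2 and 26.7 RPKM in the null G4 pair. With median scaling none of these 4 genes passed: Adam17 was 0.42 (adjusted p = 0.0555), Adam10 0.40 (adjusted p = 0.122), Dtx3l 0.51 (adjusted p = 0.137) and Ccnd1 0.94 (adjusted p = 0.0636). With the Y-linked term the adjusted p ranged from 0.336 for Adam10 to 0.613 for Ccnd1. The target Nrarp, a feedback inhibitor of Notch, was 4.76 and 4.45 against 7.24 and 8.03 RPKM and did not pass. The median of the target list was 0.28, below the 0.36 of all genes, and 3 of its 6 tested genes lay above that.

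None of 13 tested genes of the nuclear complex passed (median 0.25), nor did 1 tested gene among the other receptors and ligands, Notch4 (0.59, limma adjusted p = 0.0507). Of the other secretory fate factors 0 of 9 tested passed (median 0.043) and of the absorptive fate factors 0 of 12 (median 0.14), both medians below that of all genes. In reactivated against null G4 crypts and against heterozygous crypts, no gene of these 7 lists passed. In sorted cells and for the difference of null effects, none of their tested genes passed either.

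The products of secretory cells changed in both directions. In null G4 crypts 3 of 7 tested deep crypt secretory products fell, among them the ribonuclease Ang4 (-4.88, limma adjusted p = 4.4e-05), while Atoh1 was 30.2 and 30.8 RPKM there and 24.9 and 22 in heterozygous crypts. Of 14 tested goblet cell products Clca3 (-2.49) and Fcgbp (-1.17) fell and the transmembrane mucin Muc13 (1.69) rose. The list's median was 0.041. Over all tested genes 4.97% rose and 0.576% fell in this comparison. Ang4 passed under all 18 alternatives run (adjusted p at most 0.0111), while with the Y-linked term Clca3, Fcgbp and Muc13 had adjusted p-values of 0.0538, 0.458 and 0.206. None of 11 tested enteroendocrine products passed (median 0.012). Of 5 tested tuft cell genes 1 fell, Sh2d6 (-0.75, limma adjusted p = 0.0321), and the list's median was -0.44, with 0 of 5 above the median of all genes. Sh2d6 did not pass when any 1 of the 4 heterozygous and null G4 libraries was left out (adjusted p = 0.0777 to 0.262), nor with the Y-linked term (adjusted p = 0.188). In crypts labelled reactivated Ang4 was higher than in null G4 ones (2.05, limma adjusted p = 0.0181, or 0.056 with quantile normalization) and lower than in heterozygous ones (-2.83, limma adjusted p = 3.1e-04).

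Most markers of other cells that carry Notch receptors and ligands were low in these libraries, but some reached the level of the lower members. In crypts Tagln of the smooth muscle list was 2.72 to 3.66 RPKM and Notch2 was 1.21 to 2.08 RPKM. The leukocyte marker Ptprc was 2.58 RPKM in heterozygous replicate 2. The summed RPKM of 11 endothelial markers was 0.732 and 0.837 in the heterozygous pair, 0.548 and 0.508 in the null G4 pair and 0.538 and 0.461 in the reactivated pair, and 0 of the 11 reached RPKM 1. Cdh5 and Flt1, both defining markers of vessels, were at 0.00334 RPKM or less in every crypt library. Esam and Pecam1 of the same list were higher, at 0.391 and 0.256 RPKM in heterozygous replicate 2. The 8 smooth muscle and pericyte markers summed to 4.31 and 4.54 RPKM in the heterozygous pair and 5.69 and 5.46 RPKM in the null G4 pair. For 8 fibroblast markers the sums were 0.732 and 1.1 RPKM in heterozygous crypts, 2.27 and 3.07 in the null G4 ones and 1.83 and 0.447 in reactivated crypts, higher in null G4 like Jag1, and their part in it was not tested. The 11 leukocyte markers summed to 4.16 and 10.5 RPKM in the heterozygous pair and 6 and 5.2 RPKM in the null G4 pair. Epithelial identity genes, 9 in all, summed to 1953 and 2639 RPKM in the heterozygous pair and 3380 and 4119 RPKM in the null G4 pair, where 0 of 9 passed. The part of this higher sum in the values of Jag1 and the other members was not tested. Of 9 tested genes that mark the colon 2 rose and 0 fell: the distal homeobox genes Hoxd13 (1.92, limma adjusted p = 0.0204) and Hoxb13 (1.44, limma adjusted p = 0.0347) were higher in null G4 crypts (adjusted p = 0.104 and 0.117 with median scaling). The list's median was 0.070, below the 0.36 of all genes, and 4 of 9 genes lay above that. Over all tested genes 4.97% rose and 0.576% fell. Of 10 tested small intestine genes 0 rose and 1 fell, Rbp2, a retinol-binding protein (-1.85, limma adjusted p = 0.0442), with a list median of -1.13. Rbp2 was -1.13 without heterozygous replicate 2 (adjusted p = 0.0552) and -2.21 with median scaling (adjusted p = 0.055). The 2 heterozygous libraries differed in both regional sums, 117.9 and 327 RPKM for small intestine genes and 855.6 and 3081 for colon genes, where the other 4 crypt libraries had 108.8 to 149.1 and 1072 to 1327. The part of sampling position in the members' values was not tested.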

How the data were processed

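Expression was measured by RNA sequencing (Qiagen RNeasy Mini kit, TruSeq RNA libraries, per the labels' protocols). Alignment tool and build, per the submitters' processing notes, are STAR 2.3.0e and mm10, while the sources used here give no annotation, counter or strand setting. The authors deposited RPKM, in 1 table with 25686 genes listed for sorted and 27658 for unsorted libraries. Its 12 columns were all used. Symbols gave the members, and 97.9% of gene identifiers were found in GENCODE M21 (GRCm38, which is mm10). Muc2 stood in 3 rows, of which the mucin's own identifier was used.

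Values were tested as log2(RPKM + 1), which understates changes of low genes, with limma 3.58.1 in R 4.3.3 (mean trend, two-sided, Benjamini-Hochberg over all tested genes, threshold 0.05). A gene was tested if its RPKM reached 1 in at least 3 of the sorted or 2 of the unsorted libraries. For the interaction it had to reach 1 in any 2 of all 12. The 6 sorted libraries, the 6 unsorted libraries and, for the interaction, all 12 were fitted together. The 5 comparisons were tested on simulated data with known changes. In sorted cells no changed gene was recovered at the threshold. The lack of passing members there therefore cannot tell an unchanged gene from a missed one. The members and lists were chosen with earlier results of these data known. All members were named. From each other list the genes of smallest p could be named, up to 4 that passed, or up to 2 if none did, and Nrarp, Adam10 and Ccnd1 levels were chosen after values were seen. Low values were taken as whole reads within 0.05 of a read, up to 5 reads, and the share found whole was 81.6% to 83.6% per unsorted library (10% by chance). Alternatives covered pseudocounts 0.1 and 0.5, filters, scalings, weights, blocks, a Y-linked term and leaving out each library. Tables and plots were made in Python 3.11.15 (pandas 2.3.3, matplotlib 3.10.9).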

Additional observations from a re-analysis of the deposited data

How the results depend on the processing

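The count of members that passed was 0 in each of the 5 comparisons as reported, and it differed under a few settings. With array weights it was 2 in sorted cells, 3 in null G4 against heterozygous crypts and 7 for the difference of null effects, while 6302, 6410 and 9039 of all genes passed in place of 0, 636 and 36. With only the 2 groups compared it was 3 in null G4 against heterozygous crypts (5683 of all genes). With the replicate block it was 1 there (Jag1, adjusted p = 0.047, with 1317 of all genes), and 0 in the other comparisons, and the cause was not tested. Leaving out each library in turn gave 0 to 3 members in null G4 against heterozygous crypts (176 to 5693 of all genes), 0 to 3 in reactivated against heterozygous crypts (120 to 2298 of all genes, 146 as reported) and 0 to 1 for the difference of null effects (8 to 3533 of all genes). It gave 0 in reactivated against null G4 crypts (4 to 184 of all genes, 3 as reported) and 0 in sorted cells (0 of all genes). The lowest counts of all genes in the 2 comparisons with heterozygous crypts were 21 and 22, with no filter on low values.

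Same-numbered libraries deviated from their group means with r = 0.219 in heterozygous and null G4 crypts, -0.069 in heterozygous and reactivated crypts and -0.124 in null G4 and reactivated crypts, and with r of 0.053, -0.030 and -0.19 in sorted cells. The labels tie the numbers to no shared animal or day, so the replicate block was not used as reported. A pairing with the reactivated numbers swapped, added after seeing the data, gave 0 members and 1 of all genes for reactivated against null G4 crypts.

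No member estimate that changed sign had passed as reported. With quantile normalization, null G4 minus heterozygous became -0.15 for Atoh1, -0.076 for Dll4, -0.070 for Gfi1, -0.28 for Hes1, -0.13 for Notch1 and -0.35 for Spdef. Reactivated minus null G4 became 0.073 for Atoh1, 0.10 for Hes1, 0.084 for Jag1 and 0.087 for Spdef, and reactivated minus heterozygous -0.081 for Atoh1, -0.18 for Hes1 and -0.27 for Spdef. In sorted cells Jag1 became 0.13 and Notch2 0.044, and the difference of null effects became -0.14 for Dll1 and -0.069 for Dll4. With median scaling, null G4 minus heterozygous became -0.15 for Dll4, -0.16 for Gfi1, -0.12 for Hes1, -0.17 for Notch1 and -0.17 for Spdef. Reactivated minus null G4 became 0.057 for Atoh1, 0.081 for Hes1, 0.097 for Jag1, 0.029 for Notch2 and 0.076 for Spdef, and reactivated minus heterozygous -0.039 for Hes1 and -0.091 for Spdef. In sorted cells Jag1 became 0.21 and Notch2 0.11. The difference of null effects became -0.30 for Dll1, -0.21 for Dll4, -0.14 for Gfi1, -0.29 for Neurog3, -0.088 for Notch1 and -0.0051 for Notch2. Both scalings set the median of all genes near 0 by construction.

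The Y-linked term rests on the gap between the 2 reactivated libraries. With it, null G4 minus heterozygous became -0.56 for Atoh1, -0.026 for Dll1, -0.13 for Dll4, -0.59 for Gfi1, -0.021 for Notch1 and -1.11 for Spdef. Reactivated minus null G4 became 0.37 for Atoh1, 0.17 for Jag1 and 0.58 for Spdef, and reactivated minus heterozygous -0.19 for Atoh1, -0.10 for Gfi1 and -0.53 for Spdef. Leaving out 1 library, sorted estimates ran from -1.27 to 0.071 for Hes1 and from -0.94 to 0.097 for Notch1, null G4 minus heterozygous from -0.10 to 0.50 for Gfi1, and reactivated minus heterozygous from -0.53 to 0.77 for Spdef, -0.19 to 0.74 for Atoh1 and -0.10 to 0.69 for Gfi1. Reactivated minus null G4 ran from -0.72 to 0.58 for Spdef, -0.56 to 0.37 for Atoh1, -0.30 to 0.49 for Gfi1, -0.28 to 0.17 for Jag1, -0.18 to 0.046 for Hes1, -0.13 to 0.26 for Dll1, -0.092 to 0.25 for Dll4 and -0.026 to 0.19 for Notch1. Where a group kept 1 library, that library was assumed to vary like the others. Pseudocounts of 0.1 and 0.5 and the 2 other filters changed no sign and no call of a member. With no filter on low values, Ang4 was the only list gene named above that still passed in null G4 against heterozygous crypts, and its difference between reactivated and null G4 crypts did not pass (adjusted p = 0.119). Without a filter, Neurog3 differed by 0.16 in null G4 against heterozygous crypts (adjusted p = 0.504), and in sorted cells Gfi1 differed by -0.46, Dll4 by -0.38, Neurog3 by -0.35 and Dll1 by -0.13, none of which passed.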
